A study of Oryza sativa with 8 samples.

Results

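Flag leaf RNA of rice plants labelled GSK2-RNAi oswrky53 was compared with that of plants labelled GSK2-RNAi, 3 libraries against 3, out of 8 libraries in the series. The 2 other libraries are the wild type, cultivar ZH11, and enter here as a shared estimate of spread and as reference levels. All 8 library titles carry the tag CK, which they do not explain. The deposited values are normalized counts per transcript, and they were summed per locus, which gave 32166 loci. All 25325 loci that reached 10 in 2 or more libraries were tested. By their labels both groups carry an RNA interference construct directed at GSK2, and the second has the oswrky53 background added. The nature of the oswrky53 mutation, the promoter of the construct, and the number of lines or plants behind a library are not in the labels, so p-values reflect only how far these samples spread, which may be technical. The plants grew in a chamber, and the harvest is placed at heading by the sample labels and at booting by the series text.

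GSK2 is a shaggy-like kinase that holds back the response to brassinosteroids, the steroid hormones that in rice set leaf angle, plant height and grain size. It phosphorylates the transcription factor BZR1, which when free represses brassinosteroid synthesis genes and so closes a feedback loop. WRKY53 is a transcription factor of the WRKY family, known in rice for a part in defence and in brassinosteroid response, and it is a target of MAP kinases. The comparison asks which flag leaf transcripts differ between the libraries under these labels.

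The transcripts of the genes in the genotype name came first, to set their levels beside the labels. GSK2 (Os05g0207500, chromosome 5) was at 795, 741 and 819.6 normalized counts under the GSK2-RNAi label, at 182, 219 and 155 under the GSK2-RNAi oswrky53 label, and at 105 and 98.5 in the wild type. The 3 groups did not overlap, and the highest values stood under the label that names the interference construct alone. The values cannot tell reads of the construct, if any were counted, from reads of the gene, so this level does not test the label. The libraries labelled GSK2-RNAi oswrky53 were lower in GSK2 by 2.09 ± 0.15 on the log2 scale than those labelled GSK2-RNAi (SE; by limma, adjusted p = 0.00067). The groups are therefore named by their labels, and no result is read as a response to reduced GSK2 mRNA. WRKY53 (Os05g0343400, chromosome 5) was at 7396, 7843 and 8559.6 under the GSK2-RNAi label and at 11611, 7686 and 5971 under the GSK2-RNAi oswrky53 label, with 3992 and 3209 in the wild type. The 2 groups overlapped in WRKY53, and their log2 difference was 0.03 ± 0.23 (SE; by limma, adjusted p = 0.939), with a sign that flipped with equal totals and with quantile normalization. Each gene has a single transcript in the table. A mutation can leave the transcript in place, so the genotype is not tested by this level. The name WRKY53 was paired with its identifier by hand, without a check.

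The summed normalized counts were 20865668 to 21708140 under the GSK2-RNAi label and 25976329 to 27036584 under the GSK2-RNAi oswrky53 label, and the 100 most abundant loci held 21.3% to 22.6% and 28.5% to 31.7% of them. The part of this difference in the results below was tested only by rescaling. In bulk leaf RNA, fewer cells of a type and less RNA per cell cannot be told apart.

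Under the GSK2-RNAi oswrky53 label, 7 of 22 cytokinin genes and 7 of 15 chlorophyll synthesis genes rose, and 4 of 9 genes of brassinosteroid synthesis and breakdown. In the same libraries 8 of 13 phenylpropanoid and lignin genes and 8 of 31 genes of metal handling fell. The metal list had 25.8% of its members called, near the 25.2% of all named loci, and 3 fell without GSK2-RNAi replicate 2 or 3. RR10, a cytokinin response regulator, was 6.74-fold higher and RCCR1, a reductase of chlorophyll breakdown, 12.3-fold lower in the mean. In all, 4172 of 25325 loci changed (16.5%), 2223 upward (8.78%) and 1949 downward (7.7%), by limma with a Benjamini-Hochberg adjusted p under 0.05. The median log2 fold change of all loci was -0.01. With libraries scaled to equal totals that median was -0.32, and 1144 of 7313 called loci were higher. Leaving out 1 library lowered the count to 2361 without GSK2-RNAi replicate 1, 1568 without replicate 2 and 2136 without replicate 3, and to 2299 without GSK2-RNAi oswrky53 replicate 3. Of the called loci, 4167 had groups that did not overlap, against 39.2% of all loci tested.

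The changes were larger downward than upward. Among called loci the median log2 fold change was 0.97 for rises and -1.22 for falls. At least 4-fold changes were 219 upward and 527 downward on the log2(value + 1) scale, and at least 16-fold changes 28 and 79. With equal totals the 4-fold counts were 151 and 819. Between libraries of a group, the median SD of a locus was 0.2 on the log2 scale under the GSK2-RNAi label and 0.27 under the GSK2-RNAi oswrky53 label.

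**Figure D1:**
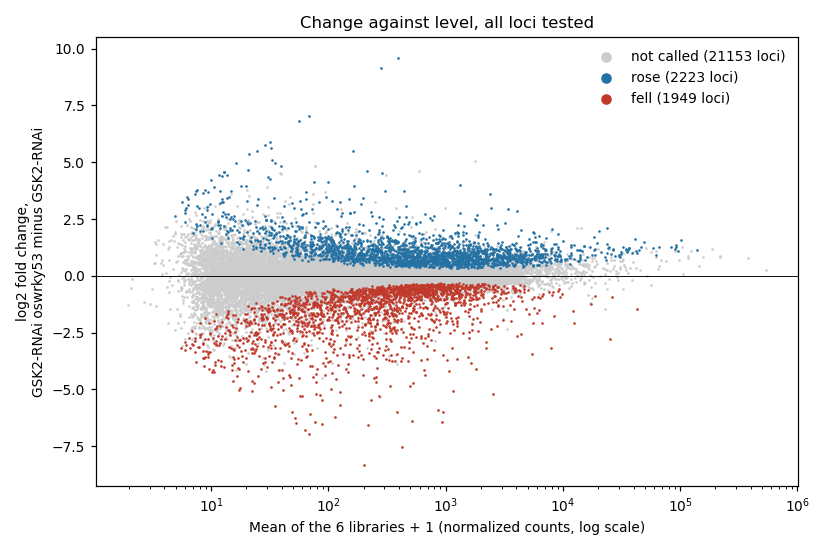
Each point is 1 of the 25325 loci, with the mean of the 6 libraries plus 1 in normalized counts on a log axis and the log2 fold change of GSK2-RNAi oswrky53 minus GSK2-RNAi on the vertical axis. Called rises (2223, blue) reach to the right end of the axis, while the called falls (1949, red) are mostly loci of middle level and extend to lower log2 values.

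A few loci were listed at 0 throughout one group. There were 4 loci at 0 in all 3 libraries labelled GSK2-RNAi and at 50 or more in every library labelled GSK2-RNAi oswrky53, and 3 loci the other way round. Os04g0422300 was at 0 in each library labelled GSK2-RNAi, at 881, 779.6 and 687 under the GSK2-RNAi oswrky53 label, and at 5.06 and 0 in the wild type. Os03g0299700 was likewise listed at 0 in the first group, at 494, 626 and 569.8 in the second and at 0 and 2.85 in the wild type. In the other direction, Os03g0363100 went from 275, 776 and 158 to 0 in each library, with 0 and 0.946 in the wild type, and Os06g0197575 from 178, 66.5 and 161 to 0, with 224 and 35.1 in the wild type. All 4 passed the limma test (adjusted p from 0.000369 to 0.0016), and none has a checked name. The pair that rose was also near absent from the wild type, and of the pair that fell one was present in it.

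The direction of the calls depended on the level of the locus. Of 243 loci with a mean of at least 10000 normalized counts, 74 rose (30.5%) and 7 fell (2.88%), while of 7513 loci with a mean from 10 to 100, 363 rose (4.83%) and 506 fell (6.73%). With equal totals 42 of the most abundant loci rose and 17 fell, and with quantile normalization 15 rose and 19 fell, so the direction in this class was not kept under both scalings. By chromosome the share called ran from 15% on chromosome 9 to 18.9% on chromosome 4. Falls outnumbered rises most on chromosome 11, where 158 of 1440 loci fell (11%) and 100 rose (6.94%), and the counts were 158 and 97 with quantile normalization. Along the chromosomes, blocks of 100 consecutive tested loci had between 8.0% and 27% of their loci called, with a median of 16% over 247 blocks, and the highest block lay on chromosome 4. The 20 blocks of chromosome 5, which holds both GSK2 and WRKY53, had from 10.0% to 24.0% called.

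**Figure D2:**
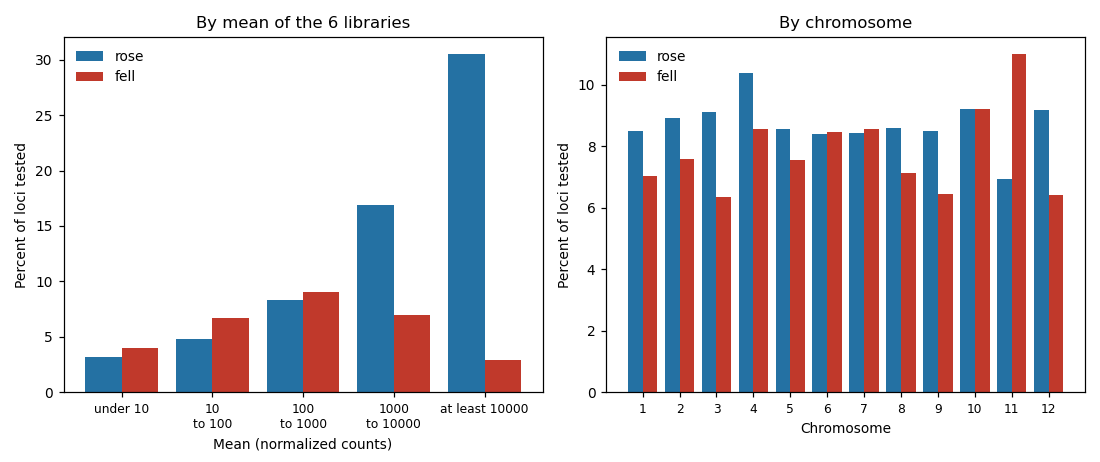
Bars give the percent of tested loci that rose (blue) or fell (red) under the GSK2-RNAi oswrky53 label, by range of the mean of the 6 libraries (left) and by chromosome (right). Rises reach 30.5% in the most abundant class with the deposited scaling, and chromosome 11 has 11% falls.

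Names were given to 555 of the tested loci, all of them checked except WRKY53. Of these 140 changed (25.2%), a higher share than the 16.5% of all loci. The named loci had a median level of 520.4 normalized counts against 239.7 over all loci. Counts of gene lists below are therefore to be set beside both shares. The share called was 22.7% in the defence and sucrose lists, 23.1% in the phosphate list and 25% in the starch list. It was 21.2% for potassium, sodium and aquaporins, 19.2% for clock and flowering, 18.2% for leaf angle and grain size, and 17.1% for cell wall. None of these shares was above that of all named loci. Many lists also gained members after values of these libraries had been seen. Named members written before numbered 9 of 15 for chlorophyll synthesis, 12 of 22 for photosynthesis and 9 of 14 for phenylpropanoid and lignin. They numbered 0 for calcium-dependent kinases, for strigolactone, and for meristem and homeobox. Where values of single libraries are given below, the 3 libraries labelled GSK2-RNAi come first, in replicate order, followed by the 3 labelled GSK2-RNAi oswrky53, all in normalized counts. A count of list members is followed by the counts without a library where leaving it out moved the count by over 1.5 times. Groups that do not overlap were a condition in choosing the 12 largest rises and the 12 largest falls among named loci. Lack of overlap in those loci is therefore no added support. Of 100 called loci that the naming rule chose, 49 kept the call under every alternative. Beside the others that are described, a call lost without a library or with another scaling, filter, pseudocount or trend is given. Calls lost with the replicate number as a block (28 of the 100) or in the fit of the 6 libraries alone (8) are not marked. LG1 was lost with the block (limma adjusted p = 0.0509).

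**Figure D3:**
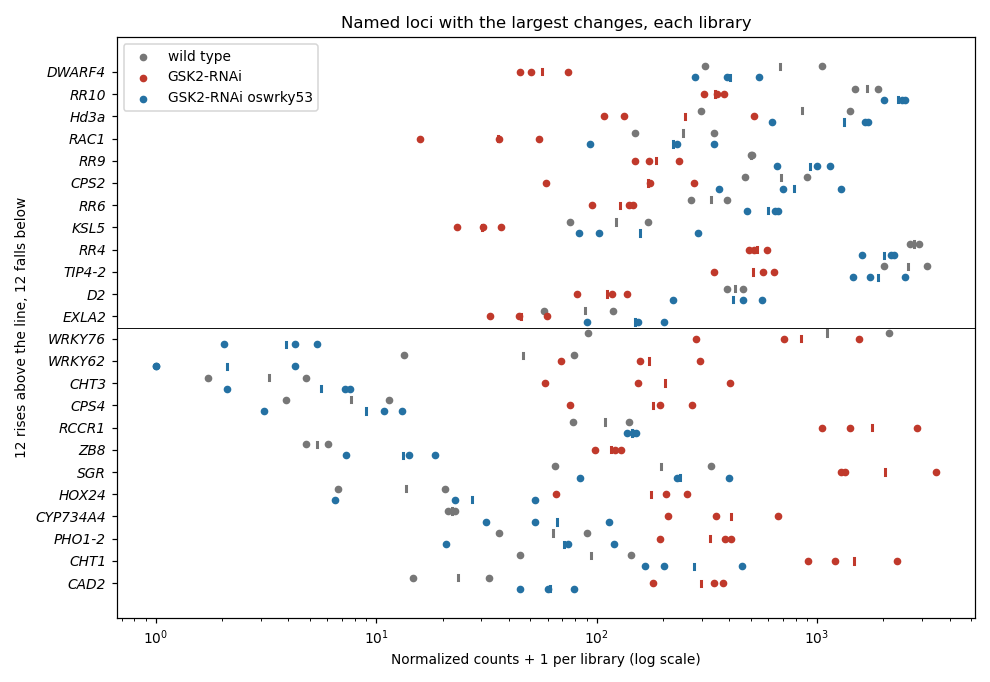
Normalized counts plus 1 of each library on a log axis, for 12 rises and 12 falls, the largest by log2 fold change among called loci whose name was checked, with a short bar at each group mean. The libraries labelled GSK2-RNAi (red) and GSK2-RNAi oswrky53 (blue) are thus apart in each locus by choice, and the wild type libraries (grey) are shown for reference.

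Brassinosteroids are made by a chain of P450 enzymes and removed by others. Of 9 members of the synthesis and breakdown list tested, 4 rose and 1 fell (0 without replicate 2 of GSK2-RNAi), with a median log2 fold change of 0.84 against -0.01 for all loci. DWARF4 (Os03g0227700), a hydroxylase of the early side-chain steps, was at 73.5, 43.9 and 49.6 normalized counts under the GSK2-RNAi label and at 389, 279 and 543 under the GSK2-RNAi oswrky53 label, and it rose by 2.82 ± 0.44 log2 units (SE; by limma, adjusted p = 0.00655). D2 (Os01g0197100), another P450 enzyme of the pathway, was at 136, 116 and 80.4 against 222, 560.3 and 462 and rose by 1.82 ± 0.34. Every library labelled GSK2-RNAi oswrky53 lay above every library labelled GSK2-RNAi in both genes. CYP85A1 (Os03g0602300), which makes castasterone, went from 60 ± 13.1 to 127 ± 38.5 (SD, n = 3 each), a call lost without replicate 1, 2 or 3 of GSK2-RNAi or replicate 2 or 3 of GSK2-RNAi oswrky53 (adjusted p from 0.0748 to 0.115) and with equal totals (0.0876) or no intensity trend (0.0525). The member that fell was CYP734A4 (Os06g0600400), which inactivates brassinosteroids, with 209.8, 665 and 347 against 51.5, 30.5 and 113. It fell by 2.67 ± 0.53 on the log2 scale, a call lost without replicate 2 of GSK2-RNAi (adjusted p = 0.053).

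Among 10 members of the brassinosteroid signalling list 3 rose and 1 fell, and the one that fell is GSK2. With equal totals 2 rose and 3 fell. The receptor kinase gene BRI1 (Os01g0718300) was at 104, 90.5 and 92 under the GSK2-RNAi label, at 187, 260.1 and 322 under the GSK2-RNAi oswrky53 label and at 215 and 258 in the wild type, and it rose by 1.38 ± 0.21 log2 units (SE; by limma, adjusted p = 0.00607). GSK4 (Os06g0547900), a kinase of the same family, went from 372 ± 16.2 to 575 ± 59.6, a call lost without replicate 2 of GSK2-RNAi (adjusted p = 0.0502) and with equal totals (0.106). LG1 (Os04g0656500), the liguleless gene needed for the lamina joint, was at 20.5, 25.1 and 28.5 against 66.9, 73.1 and 55.5, and rose by 1.37 ± 0.26. Of the leaf angle and grain size list 2 of 11 members rose and 0 fell. These were LG1 and BG1 (Os03g0175800), a regulator of grain size and auxin transport, which was at 10.8, 9.01 and 11.7 against 27.5, 47.1 and 64.3 and rose by 1.97 ± 0.37. The groups did not overlap in BRI1, GSK4, LG1 and BG1.

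**Figure D4:**
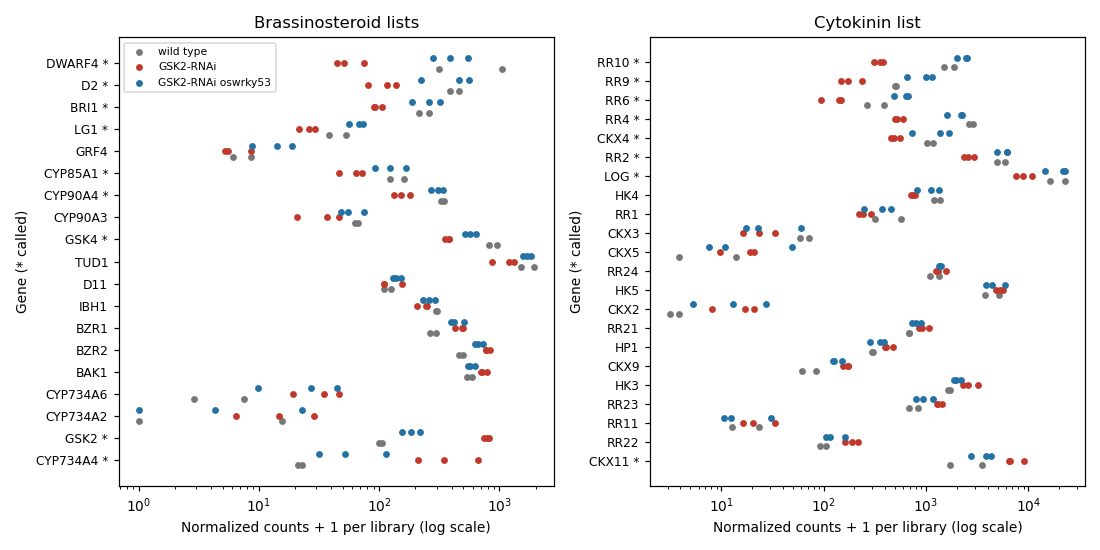
Normalized counts plus 1 of each library on a log axis for every tested member of the brassinosteroid lists (left) and the cytokinin list (right), ordered by log2 fold change, with a star at called members. At the top, DWARF4 and the response regulators RR10, RR9, RR6 and RR4 have all libraries labelled GSK2-RNAi oswrky53 (blue) above those labelled GSK2-RNAi (red).

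Type-A response regulators are induced by cytokinin and damp its signal, and 4 of them lead the rises of this list. Of 22 members of the cytokinin list 7 rose and 1 fell (0 without replicate 1, 2 or 3 of GSK2-RNAi or replicate 3 of GSK2-RNAi oswrky53), and the median log2 fold change was 0.01. RR10 (Os12g0139400) was at 353, 306 and 376 under the GSK2-RNAi label and 2515, 2019 and 2441 under the GSK2-RNAi oswrky53 label, a rise of 2.75 ± 0.14 log2 units (SE; by limma, adjusted p = 0.0003). RR6 (Os04g0673300) went from 139.5, 93.9 and 145 to 644, 482 and 662 and RR4 (Os01g0952500) from 516, 493 and 594 to 2176, 1601 and 2246. RR9 (Os11g0143300) is a near-identical copy of RR10, so the authors' counting could split reads between the pair. It was at 172, 148 and 236 against 995, 655 and 1143. In none of the 4 genes did the groups overlap, and against the wild type RR10, RR9 and RR6 of the libraries labelled GSK2-RNAi oswrky53 were higher by 0.47, 0.85 and 0.87 on the log2 scale, differences that did not pass the threshold (adjusted p = 0.286, 0.248 and 0.229).

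Of 15 members of the chlorophyll synthesis list 7 rose and 0 fell (4 without replicate 2 of GSK2-RNAi), all 15 had a positive log2 fold change, and the median was 0.91, or 0.60 with equal totals and 0.61 with quantile normalization. GluTR (Os10g0502400), the glutamyl-tRNA reductase that starts the pathway, was at 3562, 2526 and 2414 against 5455, 7874 and 8535. PPOX1 (Os01g0286600), the protoporphyrinogen oxidase, was at 649.9, 468 and 589 against 1083, 1745 and 1256. DVR (Os03g0351200), the divinyl reductase, was at 587, 606 and 769.6 against 1528, 1536 and 1599.9, 2.38-fold higher in the mean (by limma, adjusted p = 0.00266). PORB (Os10g0496900), which reduces protochlorophyllide in light, was at 11360.4, 9276 and 9426 against 21885, 29328 and 21153. No library labelled GSK2-RNAi reached the lowest library labelled GSK2-RNAi oswrky53 in any of the 4 genes.

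In the list of the photosynthesis apparatus and Calvin cycle 9 of 22 members rose and 0 fell (1 without replicate 2 of GSK2-RNAi oswrky53), with a median of 0.81. The summed level of the list was 1027395 to 1283148 normalized counts under the GSK2-RNAi label, 1938336 to 2488915 under the GSK2-RNAi oswrky53 label and 2250740.1 to 2513206 in the wild type. With quantile normalization the median was 0.19 and 2 members rose, and the number of rises was 4 without replicate 1 of GSK2-RNAi or replicate 2 of GSK2-RNAi oswrky53, 3 without replicate 3 of GSK2-RNAi or replicate 3 of GSK2-RNAi oswrky53 and 1 without replicate 2 of GSK2-RNAi. PSB28 (Os01g0938100), an assembly factor of photosystem II, was at 737, 669 and 993 against 1577, 2217 and 3266, and rose by 1.51 ± 0.27 (SE; by limma, adjusted p = 0.00965). The antenna gene RCABP69 (Os07g0558400) was at 61269, 43386 and 49482 against 125466, 187556 and 142651, a call lost without replicate 1, 2 or 3 of GSK2-RNAi or replicate 2 or 3 of GSK2-RNAi oswrky53 (adjusted p from 0.0646 to 0.105) and with quantile normalization (0.105).

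Of 5 members of the chlorophyll breakdown list 2 fell (1 without replicate 1 or 2 of GSK2-RNAi or replicate 2 of GSK2-RNAi oswrky53), 0 rose and 3 did not pass. RCCR1 (Os10g0389200), the red chlorophyll catabolite reductase, was at 1404, 2849 and 1055 under the GSK2-RNAi label and at 145, 137 and 149.5 under the GSK2-RNAi oswrky53 label, with 139.6 and 77 in the wild type. It fell by 3.48 ± 0.36 log2 units (SE; by limma, adjusted p = 0.00182), and the lower group spread little. The stay-green gene SGR (Os09g0532000), whose protein takes magnesium out of chlorophyll, was at 1283, 3471 and 1334 against 229.7, 83 and 398, a call lost without replicate 1, 2 or 3 of GSK2-RNAi or replicate 2 of GSK2-RNAi oswrky53 (adjusted p from 0.0501 to 0.0896). In both genes GSK2-RNAi replicate 2 was the highest library.

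Among genes that handle reactive oxygen species 2 of 17 rose (1 without replicate 2 or 3 of GSK2-RNAi or replicate 2 or 3 of GSK2-RNAi oswrky53) and 4 fell (2 without replicate 2 or 3 of GSK2-RNAi or replicate 2 of GSK2-RNAi oswrky53). CATA (Os02g0115700), a catalase, was among the most abundant, at 62058, 69466 and 56269 under the GSK2-RNAi label, 17095, 30549 and 22168 under the GSK2-RNAi oswrky53 label and 9724 and 12954 in the wild type, and it fell by 1.46 ± 0.25 log2 units (SE; by limma, adjusted p = 0.00917). The chloroplast enzymes went both ways. SODCP (Os08g0561700), a plastid copper/zinc superoxide dismutase, was at 1043, 931 and 1179 against 1791, 2189 and 2715, a rise of 1.07 ± 0.17, whereas the ascorbate peroxidase gene APX7 (Os04g0434800) was at 487, 521 and 551 against 234, 203 and 267, a fall of 1.15 ± 0.19. The groups did not overlap in these 3 genes.

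The phenylpropanoid and lignin list had the largest share of falls among lists of 10 or more tested members. Of 13 members 8 fell and 0 rose (1 without replicate 2 of GSK2-RNAi), the median log2 fold change was -1.31, and 6 to 8 members fell whichever of the 8 libraries was left out. The log2 fold change was positive in 3 members that were not called, the highest at 2.42. ZB8 (Os02g0627100), a phenylalanine ammonia-lyase at the entry of the pathway, was at 97.3, 119.9 and 128 under the GSK2-RNAi label and 17.5, 13.1 and 6.3 under the GSK2-RNAi oswrky53 label. It was 9.35-fold lower in the mean (log2 fold change -3.22, limma adjusted p = 0.00331). The ligase gene 4CL3 (Os02g0177600) went from 1771, 1585 and 2312 to 364, 438 and 511, and the methyltransferase gene ROMT-15 (Os08g0498100) from 4112, 4823 and 4476 to 658, 1285 and 1052. CAD2 (Os02g0187800), the cinnamyl alcohol dehydrogenase of the last lignin monomer step, was at 178, 373 and 339 against 78.1, 59 and 43.7. The groups did not overlap in any of the 4 genes, and the wild type means of 4CL3 and ROMT-15 were 321 ± 15.3 and 462 ± 143 (SD, n = 2).

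WRKY62 and WRKY76 had the largest falls among loci with a checked name. These neighbouring transcription factor genes on chromosome 9 are known in rice as negative regulators of defence. WRKY76 (Os09g0417600) was at 281, 705 and 1551 under the GSK2-RNAi label and 3.3, 4.41 and 1.04 under the GSK2-RNAi oswrky53 label, and fell by 7.55 ± 1.08 log2 units (SE; by limma, adjusted p = 0.00511). WRKY62 (Os09g0417800) was at 68.1, 157 and 293 against 0, 3.28 and 0, and fell by 6.5 ± 0.87 (adjusted p = 0.00402). Their spread was wide under the GSK2-RNAi label and also in the wild type, at 2124 and 90.2 for WRKY76 and 78.1 and 12.3 for WRKY62. The libraries labelled GSK2-RNAi oswrky53 lay below both wild type libraries in each gene, by -6.93 and -4.32 in log2 fold change (adjusted p = 0.0718 and 0.142, not past the threshold). The 4 other WRKY genes listed, WRKY53 among them, did not pass.

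Among 22 defence genes 4 fell and 1 rose, 22.7% called beside 25.2% of all named loci. The rises numbered 2 without replicate 1 of GSK2-RNAi or replicate 1 of GSK2-RNAi oswrky53. They numbered 0 without replicate 2 or 3 of GSK2-RNAi or replicate 2 or 3 of GSK2-RNAi oswrky53. Of the 22 genes, 17 did not pass, and 8 had a positive log2 fold change. The chitinase gene CHT3 (Os06g0726100) was at 57.3, 153 and 402 against 1.1, 6.57 and 6.22 and fell by 4.98 ± 0.82 log2 units (SE; by limma, adjusted p = 0.00755). Its neighbour on chromosome 6, CHT1 (Os06g0726200), also a chitinase gene, was at 909.6, 1206 and 2299 against 165, 201 and 457 and fell by 2.45 ± 0.54, a call lost without replicate 2 or 3 of GSK2-RNAi or replicate 1 or 2 of GSK2-RNAi oswrky53 (adjusted p from 0.0507 to 0.0663). The groups did not overlap in either gene. NPR1 (Os01g0194300), the coactivator of salicylic acid response, was at 468, 411 and 657 against 155, 137 and 108 and fell by 1.92 ± 0.26 (adjusted p = 0.00421). The small GTPase gene RAC1 (Os01g0229400) was the rise, from 54.1, 35.2 and 14.9 to 92.7, 341 and 231, a call lost without replicate 2 or 3 of GSK2-RNAi or replicate 2 or 3 of GSK2-RNAi oswrky53 (adjusted p from 0.0626 to 0.0711).

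Diterpenoid phytoalexin genes moved in both directions, with 3 rises (1 without replicate 2 or 3 of GSK2-RNAi oswrky53 and 0 without replicate 2 or 3 of GSK2-RNAi) and 2 falls (1 without replicate 1, 2 or 3 of GSK2-RNAi or replicate 2 or 3 of GSK2-RNAi oswrky53) among 11 members. CPS4 (Os04g0178300), the copalyl diphosphate synthase of the momilactone cluster on chromosome 4, was at 74.6, 269 and 193 against 12.1, 9.8 and 2.1 and fell by 4.38 ± 0.72 log2 units (SE; by limma, adjusted p = 0.00753). On chromosome 2, CPS2 (Os02g0571100) was at 277, 174 and 58 against 359, 1288 and 699.5, a call lost without replicate 2 or 3 of GSK2-RNAi or replicate 2 or 3 of GSK2-RNAi oswrky53 (adjusted p from 0.1 to 0.11) and with no intensity trend (0.0751). KSL5 (Os02g0571300) was at 35.7, 22.4 and 29.5 against 82.1, 286 and 101, a call lost without replicate 1, 2 or 3 of GSK2-RNAi (adjusted p from 0.0503 to 0.0867). CYP71Z7 (Os02g0570700), of the same region, fell by 2.36 in log2 fold change, so called loci of that region went both ways. That last call was lost without replicate 1, 2 or 3 of GSK2-RNAi or replicate 2 or 3 of GSK2-RNAi oswrky53 (adjusted p from 0.0701 to 0.158) and with pseudocount 0.5 (0.0553), quantile normalization (0.0529) or no intensity trend (0.0511). In the jasmonate list 1 of 22 members fell (2 without replicate 1 of GSK2-RNAi oswrky53 and 0 without replicate 1 or 2 of GSK2-RNAi or replicate 2 of GSK2-RNAi oswrky53) and 0 rose, a share of 4.55% beside 16.5% of all loci, and with equal totals 8 fell.

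Of 31 members of the list of iron and other metals 8 fell and 0 rose (1 without replicate 1 of GSK2-RNAi), and the median log2 fold change was -0.14. The number that fell was 5 without replicate 1 or 3 of GSK2-RNAi oswrky53 and 3 without replicate 2 or 3 of GSK2-RNAi. NAAT1 (Os02g0306401), the nicotianamine aminotransferase of phytosiderophore synthesis, was at 5951, 8844 and 11901 under the GSK2-RNAi label, 1868, 1298 and 3614 under the GSK2-RNAi oswrky53 label and 2903 and 2391 in the wild type, and fell by 2.05 ± 0.38 log2 units (SE; by limma, adjusted p = 0.0109). MT1A (Os11g0704500), a metallothionein, was at 11485, 15317 and 12033 against 3639, 3722 and 4025, with a fall of 1.76 ± 0.15 (adjusted p = 0.00116). HMA5 (Os04g0556000), a copper-transporting ATPase, was at 101, 299 and 239.6 against 20.8, 68.6 and 48.3, a call lost without replicate 2 or 3 of GSK2-RNAi or replicate 1 or 3 of GSK2-RNAi oswrky53 (adjusted p from 0.0545 to 0.105). The groups did not overlap in the 3 genes.

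In the phosphate list 3 of 13 members fell (1 without replicate 1 or 3 of GSK2-RNAi or replicate 1 or 2 of GSK2-RNAi oswrky53) and 0 rose. The phosphate transporter gene PHT1-1 (Os03g0150600) was at 3449, 2102 and 3238 against 759, 979 and 676, with 213 and 270.1 in the wild type, and fell by 1.85 ± 0.22 log2 units (SE; by limma, adjusted p = 0.00297). PHO1-2 (Os02g0809800), a phosphate exporter, was at 194, 380 and 407 against 19.7, 72.9 and 119, a call lost without replicate 1, 2 or 3 of GSK2-RNAi or replicate 1 or 2 of GSK2-RNAi oswrky53 (adjusted p from 0.0523 to 0.123) and with no intensity trend (0.0659). In the nitrogen list 1 of 11 members rose (0 without replicate 1, 2 or 3 of GSK2-RNAi or replicate 2 or 3 of GSK2-RNAi oswrky53). In the same list 2 fell (1 without replicate 1 or 3 of wild type or replicate 1 or 3 of GSK2-RNAi oswrky53 and 0 without replicate 1, 2 or 3 of GSK2-RNAi or replicate 2 of GSK2-RNAi oswrky53), and none was called with quantile normalization. GS2 (Os04g0659100), the plastid glutamine synthetase, was at 22624, 16736 and 24368 against 36005, 45481 and 42612, a call lost without replicate 1, 2 or 3 of GSK2-RNAi or replicate 2 or 3 of GSK2-RNAi oswrky53 (adjusted p from 0.0508 to 0.0953) and with quantile normalization (0.222).

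Calcium-dependent protein kinases decode calcium signals and in rice act in stress and immune responses. Of 6 members, a list chosen wholly after values of these libraries had been seen, 4 fell and 0 rose. CPK18 (Os07g0409900) was at 1082, 1084 and 1041 under the GSK2-RNAi label and 568, 547 and 494 under the GSK2-RNAi oswrky53 label, a fall of 1.00 ± 0.11 log2 units (SE; by limma, adjusted p = 0.00197). CPK24 (Os11g0171500) was at 956, 938 and 999.9 against 522, 588 and 665, a fall of 0.71 ± 0.12 (adjusted p = 0.00935). Neither gene had overlapping groups. The number of members that fell was 2 without replicate 1 or 3 of GSK2-RNAi or replicate 2 or 3 of GSK2-RNAi oswrky53. Among 7 MAP kinases 1 rose (0 without replicate 2 or 3 of GSK2-RNAi or replicate 2 or 3 of GSK2-RNAi oswrky53) and 1 fell (2 without replicate 1 of GSK2-RNAi oswrky53 and 0 without replicate 1, 2 or 3 of GSK2-RNAi or replicate 2 or 3 of GSK2-RNAi oswrky53). MPK12 (Os06g0708000) was at 1169.9, 1088 and 1244 against 859.9, 728 and 844, a call lost without replicate 1, 2 or 3 of GSK2-RNAi or replicate 2 or 3 of GSK2-RNAi oswrky53 (adjusted p from 0.0505 to 0.0736).

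In the list of potassium, sodium and aquaporins 4 of 33 members rose (2 without replicate 1, 2 or 3 of GSK2-RNAi or replicate 3 of GSK2-RNAi oswrky53) and 3 fell (1 without replicate 2 or 3 of GSK2-RNAi). The aquaporin genes TIP4-2 (Os01g0232000), of the vacuole membrane, and NIP3-1 (Os10g0513200), which carries boron, rose by 1.89 ± 0.29 and 1.58 ± 0.25 log2 units (SE; by limma, adjusted p = 0.00625 and 0.00685). TIP4-2 was at 566, 339.9 and 635 under the GSK2-RNAi label and 1735, 2502 and 1449 under the GSK2-RNAi oswrky53 label. NIP3-1 was at 120, 116 and 79.1 against 370.3, 235 and 347. The sodium transporter gene HKT1;4 (Os04g0607600) was at 44.3, 70.9 and 142 against 18.7, 19.6 and 16.7, a call lost without replicate 2 or 3 of GSK2-RNAi or replicate 3 of GSK2-RNAi oswrky53 (adjusted p from 0.0557 to 0.0676). All 3 genes had groups that did not overlap.

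The auxin list, the largest with 56 members tested, had 8 rises and 2 falls (17.9% called, beside 16.5% of all loci). The falls numbered 1 without replicate 1 or 3 of wild type, replicate 2 of GSK2-RNAi or replicate 2 or 3 of GSK2-RNAi oswrky53. The rises numbered 5 without replicate 2 of GSK2-RNAi oswrky53, 4 without replicate 1 or 3 of GSK2-RNAi and 2 without replicate 2 of GSK2-RNAi or replicate 3 of GSK2-RNAi oswrky53. IAA genes encode short-lived repressors of auxin response, and members went both ways. IAA2 (Os01g0190300) was at 424, 240.3 and 333 against 705, 1113 and 1222 and rose by 1.60 ± 0.26 log2 units (SE; by limma, adjusted p = 0.00755), whereas IAA16 (Os05g0186900) was at 160, 131 and 117 against 46.1, 26.2 and 46.9 and fell by 1.79 ± 0.33 (adjusted p = 0.0115). With equal totals 3 auxin members rose and 8 fell, so the balance of directions in this list was not kept.

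In the gibberellin list 3 of 11 members rose (1 without replicate 2 of GSK2-RNAi) and 1 fell (0 without replicate 1, 2 or 3 of GSK2-RNAi or replicate 1, 2 or 3 of GSK2-RNAi oswrky53), and with equal totals 1 rose and 3 fell. KS1 (Os04g0611800), the kaurene synthase of gibberellin synthesis, was at 394, 355 and 309 against 606, 785 and 688 and rose by 0.97 ± 0.14 log2 units (SE; by limma, adjusted p = 0.00517). SLR1 (Os03g0707600), the DELLA repressor of gibberellin response, was at 2579.8, 2267 and 2453 against 3535, 3819 and 3870.4, a call lost without replicate 2 of GSK2-RNAi (adjusted p = 0.0502) and with equal totals (0.0679). Of 9 ethylene genes 0 fell (1 without replicate 2 of GSK2-RNAi oswrky53) and 1 rose, the receptor gene ERS2 (Os05g0155200), from 337, 286 and 299 to 513, 587 and 578 (log2 fold change 0.86, adjusted p = 0.00473). Of 32 genes of abscisic acid and water stress 2 rose and 3 fell (15.6%). The rises numbered 5 without replicate 1 or 3 of wild type, 1 without replicate 1 of GSK2-RNAi or replicate 2 of GSK2-RNAi oswrky53 and 0 without replicate 2 or 3 of GSK2-RNAi or replicate 3 of GSK2-RNAi oswrky53, and the falls 1 without replicate 1 or 2 of GSK2-RNAi or replicate 3 of GSK2-RNAi oswrky53. Among them SAPK3 (Os10g0564500), a kinase of the SnRK2 family, was at 1638, 1759 and 1705 against 515, 890 and 892 and fell by 1.19 ± 0.21 (adjusted p = 0.00888). ABA8OX2 (Os08g0472800) was the larger rise, at 669, 624 and 436 against 1289.6, 1615 and 1687. Its call was lost without replicate 2 or 3 of GSK2-RNAi or replicate 3 of GSK2-RNAi oswrky53 (limma adjusted p from 0.0528 to 0.0569). The homeobox gene HOX24 (Os02g0649300) was at 257, 206 and 64.6 against 5.5, 51.4 and 21.9, a call lost without replicate 1, 2 or 3 of GSK2-RNAi or replicate 1 or 3 of GSK2-RNAi oswrky53 (adjusted p from 0.0506 to 0.15) and with no filter (0.0526) or no intensity trend (0.0766). None of the 4 strigolactone genes passed, and the receptor gene D14 (Os03g0203200) was nearest to no difference, at 37875, 27142 and 23403 against 27440.5, 36335 and 22606.

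In the list of sucrose transport and invertase 4 of 22 members rose (2 without replicate 2 of GSK2-RNAi oswrky53 and 1 without replicate 1, 2 or 3 of GSK2-RNAi or replicate 3 of GSK2-RNAi oswrky53) and 1 fell (0 without replicate 2 of GSK2-RNAi or replicate 1 or 2 of GSK2-RNAi oswrky53), and with equal totals 1 rose and 4 fell. The sugar transporter gene SWEET4 (Os02g0301100) was at 902, 866 and 1489 under the GSK2-RNAi label and 2119, 2548 and 3041 under the GSK2-RNAi oswrky53 label, a rise of 1.27 ± 0.23 log2 units (SE; by limma, adjusted p = 0.0103). The sucrose loader gene SUT1 (Os03g0170900) was at 2467, 3807 and 3331 against 1907, 1693 and 2315, a call lost without replicate 2 or 3 of GSK2-RNAi or replicate 1 or 2 of GSK2-RNAi oswrky53 (adjusted p from 0.0814 to 0.138) and with no intensity trend (0.0743). Of 12 starch genes 2 rose (1 without replicate 1, 2 or 3 of GSK2-RNAi or replicate 1, 2 or 3 of GSK2-RNAi oswrky53) and 1 fell (0 without replicate 1 or 3 of wild type, replicate 2 or 3 of GSK2-RNAi or replicate 1 or 2 of GSK2-RNAi oswrky53), and with equal totals 1 rose and 3 fell. The amylase gene AMY3D (Os08g0473900) was low throughout, at 6.49, 6.28 and 2.11 against 40.6, 38.2 and 16.7, a call lost without replicate 2 of GSK2-RNAi oswrky53 (adjusted p = 0.053).

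In the clock and flowering list 3 of 26 members rose (1 without replicate 2 or 3 of GSK2-RNAi or replicate 3 of GSK2-RNAi oswrky53) and 2 fell (1 without replicate 3 of GSK2-RNAi and 0 without replicate 1 or 2 of GSK2-RNAi or replicate 2 or 3 of GSK2-RNAi oswrky53), and 20 of the 26 had a positive log2 fold change. The florigen gene Hd3a (Os06g0157700), which is made in leaves and moves to the shoot tip, was at 516, 132 and 108 against 627, 1655 and 1699.7, a call lost without replicate 2 or 3 of GSK2-RNAi or replicate 2 or 3 of GSK2-RNAi oswrky53 (adjusted p from 0.115 to 0.15) and with no intensity trend (0.0815). MADS18 (Os07g0605200), a MADS-box gene of the flowering transition, was at 1891, 997 and 1688 against 2859, 3688 and 3719.6 and rose by 1.21 ± 0.23 log2 units (SE; by limma, adjusted p = 0.0133). MADS14 (Os03g0752800), of the same clade, was at 7923, 4815 and 7154 against 10964, 11881 and 13491, a call lost without replicate 2 or 3 of GSK2-RNAi or replicate 2 or 3 of GSK2-RNAi oswrky53 (adjusted p from 0.0576 to 0.0812) and with equal totals (0.0639) or quantile normalization (0.0843). The groups did not overlap in the 3 genes, and the median of the list was 0.24 with the deposited scaling, 0.04 with quantile normalization and -0.07 with equal totals.

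In the list of heat shock and protein folding 2 of 28 members rose (1 without replicate 1 or 2 of GSK2-RNAi) and 5 fell. The falls numbered 3 without replicate 1 or 3 of GSK2-RNAi or replicate 2 or 3 of GSK2-RNAi oswrky53, and 2 without replicate 2 of GSK2-RNAi. The share called was 25%, near the 25.2% of all named loci. Of the heat shock factor genes called, some rose and some fell. HSFA2D (Os03g0161900) was at 2058, 1655 and 2081 against 4551, 5166 and 4212 and rose by 1.27 ± 0.13 log2 units (SE; by limma, adjusted p = 0.00196), whereas HSFA4D (Os05g0530400) was at 230.3, 186 and 357 against 101, 94.8 and 68.1 and fell by 1.51 ± 0.28 (adjusted p = 0.0108). In the cell wall list 3 of 35 members rose (1 without replicate 3 of GSK2-RNAi and 0 without replicate 2 of GSK2-RNAi) and 3 fell. The cellulose synthase-like gene CSLE1 (Os09g0478100) was at 2555, 4858 and 2119 against 1085, 534 and 676 and fell by 2.02 ± 0.34 (adjusted p = 0.00808). CSLD5 (Os06g0336500) was barely present, at 1.08, 0 and 1.05 against 54.7, 8.7 and 16.9, a call lost without replicate 2 of GSK2-RNAi (adjusted p = 0.053). EXLA2 (Os10g0542400), an expansin-like gene, was at 58.4, 43.3 and 31.8 against 201, 152 and 89.9, a call lost without replicate 2 or 3 of GSK2-RNAi or replicate 1 or 2 of GSK2-RNAi oswrky53 (adjusted p from 0.0632 to 0.0821).

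**Figure D5:**
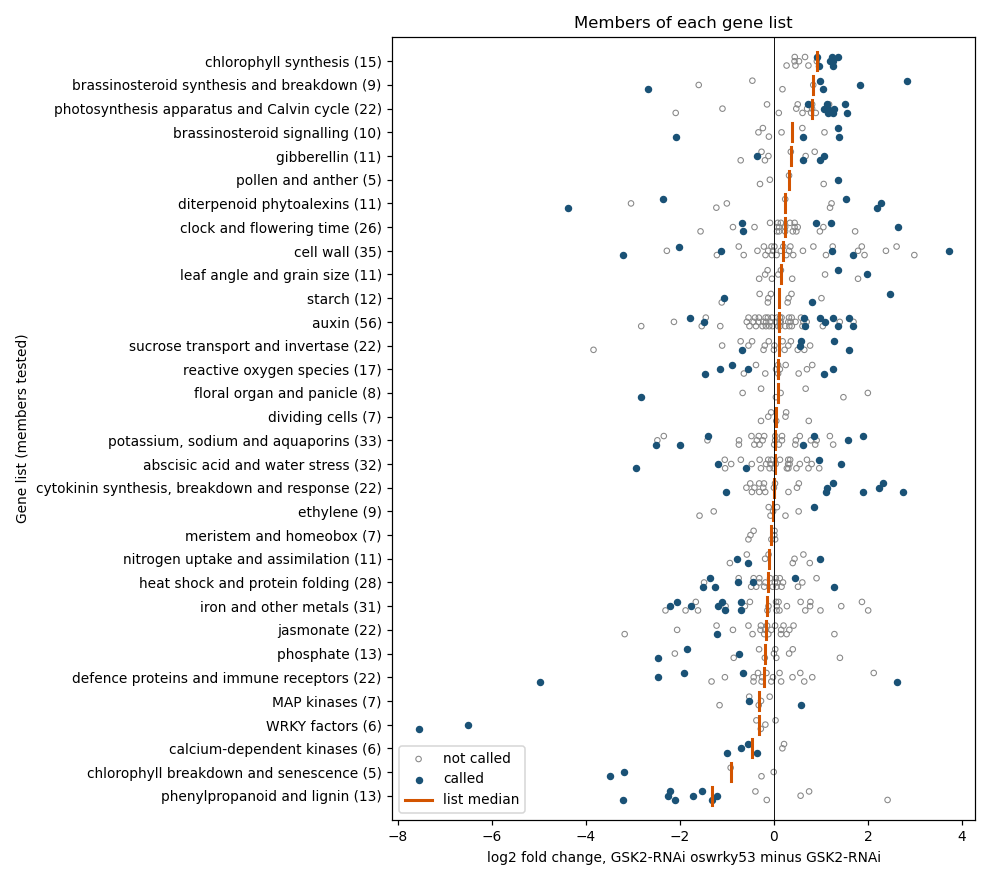
Each point is the log2 fold change, GSK2-RNAi oswrky53 minus GSK2-RNAi, of 1 tested member of a gene list, filled where called, with an orange bar at the list median. Lists of 5 or more tested members are shown in order of their medians, from 0.91 for chlorophyll synthesis to -1.31 for phenylpropanoid and lignin.

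Markers of dividing cells, floral organ and panicle, pollen and anther, and root were listed as a measure of what else the samples could hold. Their part in the results above was not tested. The 10 genes of dividing cells summed to 1005 to 1082 normalized counts under the GSK2-RNAi label and to 1111 to 1168 under the GSK2-RNAi oswrky53 label, ranges that do not overlap, and 0 of 7 tested passed. CDKB1-1 (Os01g0897000), a kinase of dividing cells, was at 201, 193 and 185 against 189, 214 and 196. The 16 floral organ and panicle genes summed to 4731 to 5518 and 4787 to 6517, and to 4492 to 5099 in the wild type. The list was thus well expressed in the wild type flag leaf, so its sum is not read as a measure of floral tissue. Of its genes 8 were tested and 1 fell, and MADS7 and MADS8 were at 0 in all 6 libraries. The one that fell, MADS3 (Os01g0201700), a stamen and carpel gene, was low, at 16.2, 21.6 and 51.8 against 3.3, 3.28 and 2.09 (limma adjusted p = 0.012). The 7 pollen and anther genes summed to 345 to 398 and 398 to 481, and 1 of 5 tested rose (2 without replicate 1 of GSK2-RNAi oswrky53 and 0 without replicate 2 or 3 of GSK2-RNAi or replicate 3 of GSK2-RNAi oswrky53). That was TDR (Os02g0120500), a tapetum regulator, at 27, 27.8 and 24.3 against 89.9, 46.9 and 78.6, a call lost without replicate 2 or 3 of GSK2-RNAi or replicate 3 of GSK2-RNAi oswrky53 (adjusted p from 0.0557 to 0.0594). The 3 root genes summed to 449 to 639.6 and 513 to 619.6, and 0 of 3 passed. The 10 meristem and homeobox genes summed to 10489.5 to 12298 under the GSK2-RNAi label, 8203 to 10598 under the GSK2-RNAi oswrky53 label and 6628 to 7165 in the wild type, and 0 of 7 tested passed (1 without replicate 2 of GSK2-RNAi oswrky53). That list was not planned as a tissue marker, and it was well expressed in the wild type flag leaf too. Of 2 flavonoid genes tested, 0 passed. Among these the member nearest to no difference was HOX10 (Os03g0109400), at 848, 935 and 922 against 881, 911 and 927, and for root NIP2-1 (Os02g0745100), at 262, 399.9 and 256 against 294, 322 and 286. The flavonoid gene CHI (Os03g0819600), a chalcone isomerase, was at 2858, 2715 and 2813 against 3308, 4448 and 3433 (limma adjusted p = 0.226).

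The wild type levels are given side by side because both other contrasts share libraries with this one. The libraries labelled GSK2-RNAi differed from the wild type in 6290 of 25325 loci (24.8%) and those labelled GSK2-RNAi oswrky53 in 85 (0.336%), each against only 2 wild type libraries. For RCCR1 the 2 log2 fold changes against the wild type were 3.95 and 0.47, for ZB8 4.42 and 1.20, for RR4 -2.37 and -0.48, and for PORB -1.41 and -0.15. A difference from the wild type that did not pass the threshold does not show that the levels were equal, and the GSK2-RNAi oswrky53 label against the wild type gave log2 fold changes of 1.63 for CHT1 and 1.72 for PHT1-1, with limma adjusted p of 0.317 and 0.032.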

How the data were processed

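Flag leaf RNA of 8 libraries was sequenced from total RNA with an Illumina TruSeq kit, per the labels' protocols. In the table the authors deposited, the signal of each of 38335 transcripts per library is a normalized count that need not be whole. How they normalized it is not given in the sources used here. Per the submitters' processing notes, DESeq2 1.26.0, kallisto 0.46.1 and IRGSP-1.0 are named, with no role or order given. Whole reads were not recovered, so depth is unknown and no count model was run. Values were summed per locus and used as log2(value + 1), which understates changes of low loci. Using limma 3.58.1 (R 4.3.3, intensity trend), the 3 group means were estimated from the 8 libraries, with Benjamini-Hochberg adjustment over 25325 loci. Folds are ratios of group means, errors are SD, or SE of a log2 fold change. Other steps used Python 3.11.15, numpy 2.4.6, pandas 2.3.3 and matplotlib 3.10.9.

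A locus was tested where at least 2 libraries reached 10. The table holds identifiers without names. Of 1146 symbol and identifier pairs written by hand, 707 passed a check of chromosome and order within 1 Mb in RefSeq assembly ASM3414082v1, and 628 loci were named. The check cannot tell neighbouring family members apart, and WRKY53 was not checked. No coordinates are given, since the builds differ. The comparison and the lists were chosen with earlier results of these data known. Named loci are GSK2, WRKY53, 12 rises and 12 falls (the largest log2 fold changes of called loci that have a checked name, no overlap between groups and a mean of 50 or more), up to 4 called members of a list (the member nearest 0 where none was called), and, by identifier, the 2 that rose most and the 2 that fell most of the called loci lacking a name, with the same minimum mean. In simulated libraries of this comparison over 25325 loci, 47% of 100 loci changed 2-fold and 82% of 100 changed 4-fold were recovered, with 10 false calls. The changed loci were drawn from those with a mean log2 value above that of 50, and no others were changed, against 4172 called in the data. Each locus had the same normal spread in all groups. These rates therefore do not give the sensitivity of the comparison, least of all for low loci. The alternatives were other pseudocounts, filters and scalings, no trend, the 6 libraries alone, a replicate block, transcripts not summed, and each library left out.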

Additional observations from a re-analysis of the deposited data

How the results depend on the processing

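Of the 4172 loci called, 2223 were higher and 1949 lower. With the libraries scaled to equal totals, 7313 were called, 1144 higher and 6169 lower, the median of all loci moved to -0.32 on the log2 scale, and 819 in place of 527 fell at least 4-fold. With median-of-ratios size factors, 4136 loci were called, 2152 higher and 1984 lower, and the median of all loci was -0.02. These factors ran from 0.984 to 1.024 over the 8 libraries, so the deposited values were already near that scale. Such a scale holds the median of all loci near 0, so that median is not a result. The alternatives on size of change, abundant loci and chromosome 11 were chosen after seeing the data. Leaving out 1 library in turn gave 1568 to 4341 loci called, 788 to 2365 higher and 780 to 1977 lower, between 60 and 142 list members called in place of 138, and between 53 and 93 named loci called in place of 100; each lowest count came without GSK2-RNAi replicate 2. With the replicate number as a block, 2787 loci were called, 1516 higher and 1271 lower. The numbers did not pair the samples: deviations of same-numbered libraries correlated at -0.041, -0.065 and 0.045, and no library correlated best with its own number. The direction reversed in 5 loci that were not called. CDKB1-1 was at -0.26 with equal totals. HOX10 was at -0.31 with equal totals, -0.03 with quantile normalization and -0.04 to 0.04 without a library. NIP2-1 was at -0.31 with equal totals and -0.11 to 0.21 without a library, and D14 at -0.21 to 0.16 without a library. WRKY53 was at -0.28 with equal totals, -0.32 with quantile normalization and -0.23 to 0.25 without a library. The cause of these changes was not tested. The depth is unknown, so no counting error can be given for low loci.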
